A study of Mus musculus with 2 samples.

Results

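*Inha*, *Inhba*, *Inhbb*, *Fst*, *Amh*, *Amhr2*, *Acvr2a*, *Acvr2b* and *Acvr1b*, the core genes of activin, inhibin and AMH signalling, were followed across the cell types of the fetal mouse testis. They were taken by symbol from the gene rows of the deposited feature table and make up 9 of its 32285 genes. The nuclei came from whole E14.5 testes of a single genotype, in which a *Nr5a1-cre* allele and a *Rosa-tdTomato* reporter were brought together by crossing homozygous parents, and all nuclei share it. *Nr5a1* drives the Cre in somatic gonadal cells, so the reporter is a lineage label of those cells, and no testes without it are analysed here. How many embryos were pooled is not stated in the labels or the study's methods.

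RNA and chromatin were read from the same nuclei in 1 library each, so there was no replicate and no p-value was computed. Levels are unique transcript molecules (UMIs) per 1000000 UMIs of a cell class (CPM), each with an exact 95% interval that covers counting error only. Of 9833 barcodes, 7198 nuclei were kept, with a median of 7948 UMIs. They fell into 12 classes, 10 of them named by marker genes. The Sertoli-like class held 834 nuclei, the Leydig-like class 791, the germ-like class 974, a cycling progenitor-like class 749 and a surface epithelium-like class 562. The largest class, with 2528 nuclei, carried markers of interstitial progenitors and of contractile cells together and is called mixed interstitial. In its place a finer clustering gave 1511 progenitor-like and 1063 contractile-like nuclei. A class of 87 nuclei that stood out for *Pax8* had no name by the marker rule. The remaining classes were small, with 46 to 398 nuclei, and were erythroid-like, pericyte-like, immune-like, endothelial-like and mesonephric mesenchyme-like. All 6 Sertoli markers stood at least 3.44-fold and all 5 Leydig markers at least 3.90-fold above the level in all other nuclei. The progenitor name rested on weaker contrasts: 5 of its 6 markers passed 2-fold in the cycling class, the lowest at 1.82-fold, and 4 of 6 in the finer progenitor-like class, where *Tcf21* stood at 1.48-fold and *Wnt5a* at 1.49-fold.

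Activins are dimers of inhibin beta chains, inhibins pair the alpha chain encoded by *Inha* with a beta chain encoded by *Inhba* or *Inhbb*, and inhibin opposes activin. Activin is held by type II receptors, encoded by *Acvr2a* and *Acvr2b*, which engage the type I receptor encoded by *Acvr1b* and signal through SMAD2 and SMAD3, while follistatin, encoded by *Fst*, binds and neutralises activin. AMH is made by fetal Sertoli cells, removes the Müllerian ducts in males through its own type II receptor AMHR2, and signals through BMP type I receptors and SMAD1, SMAD5 and SMAD9. In the fetal testis, activin A made by Leydig cells is known to promote the proliferation of Sertoli cells.

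The sequences of 2 promoters and 3 distal peaks are given first (GRCm38). The *Amh* promoter, which had the largest contrast of the 9 in Sertoli-like nuclei, is not among them. The genes lie at chr1:75507077-75510366 (*Inha*, plus strand), chr13:16011851-16031621 (*Inhba*, plus), chr1:119415465-119422248 (*Inhbb*, minus), chr13:114452290-114458951 (*Fst*, minus), chr10:80805243-80807648 (*Amh*, plus), chr15:102445367-102454633 (*Amhr2*, plus), chr2:48814109-48903269 (*Acvr2a*, plus), chr9:119402118-119434995 (*Acvr2b*, plus) and chr15:101174067-101213684 (*Acvr1b*, plus). RefSeq promoters, from 250 bases before to 50 after a start, were matched for 7 of the 9 genes, and those of *Amh* and *Fst* were not matched. The *Amhr2* promoter (chr15:102445117-102445416, plus strand) is shown because it was more open in Sertoli-like nuclei, and the *Inhbb* promoter (chr1:119422199-119422498, minus strand) because it lay in the *Inhbb* start peak with the higher Sertoli signal. Capitals mark letters that the nuclear receptor NR5A1 binds.
Amhr2 promoter: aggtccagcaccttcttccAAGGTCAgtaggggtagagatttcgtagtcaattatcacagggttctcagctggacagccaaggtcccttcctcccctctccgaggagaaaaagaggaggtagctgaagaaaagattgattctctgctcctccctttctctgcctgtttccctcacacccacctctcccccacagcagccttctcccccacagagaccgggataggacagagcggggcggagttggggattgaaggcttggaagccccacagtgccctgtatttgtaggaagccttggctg
Inhbb promoter: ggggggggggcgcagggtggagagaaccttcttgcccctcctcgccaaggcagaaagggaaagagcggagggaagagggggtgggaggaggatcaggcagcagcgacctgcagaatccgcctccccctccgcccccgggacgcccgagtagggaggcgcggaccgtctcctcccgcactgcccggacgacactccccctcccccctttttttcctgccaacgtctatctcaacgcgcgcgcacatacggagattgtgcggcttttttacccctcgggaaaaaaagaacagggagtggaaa
Both windows were searched on both strands, with those of the other 5 matched genes, for the letters of 5 factors, none of which contains another: AAGGTCA for the nuclear receptor NR5A1, AACAAT for the SOX family, AGATAA for the GATA family, TGACGTCA for the cyclic AMP response element and GTCTAGAC for the SMAD family. The single match was AAGGTCA in the *Amhr2* promoter, 231 bases before the start on the plus strand, and 4.72% of 32851 mouse promoters of this length hold these letters. The other shares were 10.7% for the SOX letters, 11.2% for the GATA letters, 1.79% for the cyclic AMP letters and 0.21% for the SMAD letters. A match describes letters and is not evidence of a bound site. The *Inha* window (chr1:75507359-75507658) lay inside the gene and outside the *Inha* promoter peak described below, so the letters at that peak were not searched.

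The central 300 bases of 3 peaks away from the starts are shown because they were, of the peaks near *Inhbb*, *Acvr1b* and *Inhba*, those most open in the class of highest RNA relative to other nuclei. They lie at chr1:119413235-119413534 (intergenic, past the 3′ end of *Inhbb*), chr15:101209756-101210055 (an intron of *Acvr1b*) and chr13:16065215-16065514 (intergenic, past *Inhba*), all on the plus strand. Capitals mark GATA letters read on the other strand.
Inhbb peak: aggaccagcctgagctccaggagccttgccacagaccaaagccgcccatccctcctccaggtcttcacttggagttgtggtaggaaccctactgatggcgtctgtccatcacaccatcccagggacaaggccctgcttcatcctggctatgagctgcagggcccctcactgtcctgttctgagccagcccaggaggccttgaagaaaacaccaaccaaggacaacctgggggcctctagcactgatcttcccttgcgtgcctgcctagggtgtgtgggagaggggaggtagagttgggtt
Acvr1b peak: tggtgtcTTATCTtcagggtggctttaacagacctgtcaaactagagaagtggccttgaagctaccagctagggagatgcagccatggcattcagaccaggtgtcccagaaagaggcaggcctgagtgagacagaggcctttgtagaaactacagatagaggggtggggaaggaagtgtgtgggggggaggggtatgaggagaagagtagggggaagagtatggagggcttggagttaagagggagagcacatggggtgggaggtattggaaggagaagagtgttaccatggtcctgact
Inhba peak: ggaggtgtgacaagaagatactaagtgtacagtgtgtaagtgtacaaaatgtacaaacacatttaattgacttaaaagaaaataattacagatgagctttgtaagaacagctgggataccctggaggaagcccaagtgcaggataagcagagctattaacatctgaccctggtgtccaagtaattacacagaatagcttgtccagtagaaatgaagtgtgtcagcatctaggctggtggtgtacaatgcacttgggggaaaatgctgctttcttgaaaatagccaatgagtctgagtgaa
The *Acvr1b* peak held the GATA letters once, as do 17.3% of the centres of 109183 peaks, and the same 5 motifs had no match in the *Inhbb* and *Inhba* peaks.

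*Inhba*, the beta A chain of activin A, was highest in the interstitium. Its level was 298 CPM (290–307, 4836 UMIs) in the mixed interstitial class and 218 CPM in cycling progenitor-like nuclei. In the finer clustering it was 365 CPM in progenitor-like and 195 CPM in contractile-like nuclei, a ratio of 1.87 (1.76–1.998), and it stood 3.84-fold (3.69–4.002) above all other nuclei in the progenitor-like class, the only member of 9 past 2-fold there against 4.08% of genes. Leydig-like nuclei followed with 133 CPM and immune-like nuclei with 117 CPM, which did not differ beyond counting error (ratio 1.13, 0.90–1.44). The immune value depended on the clustering, with 55.1 CPM in the 65 immune-like nuclei of classes made from RNA alone, where Leydig-like nuclei had 131 CPM, against 117 CPM in the 68 of the joint classes. Endothelial-like nuclei had 86.9 CPM and mesonephric mesenchyme-like nuclei 85.4 CPM. Sertoli-like nuclei had 40.6 CPM and germ-like nuclei 47.0 CPM. Carry-over of *Inhba* RNA from interstitial nuclei into these and other classes was not tested. In the finer clustering, progenitor-like nuclei had 9.22-fold the Sertoli level of 39.6 CPM and 2.85-fold (2.66–3.05) the Leydig level of 128 CPM. The mixed class stood 3.51-fold (3.38–3.65) above all other nuclei, and *Inhba* was again the only member past 2-fold, where 5.07% of 15216 genes were. The level in cycling progenitor-like nuclei was 1.81-fold that in all other nuclei, which include the mixed class, and none of the 9 genes passed 2-fold, against 3.68% of genes. *Inhba* was already known from earlier results on these nuclei as a gene of the interstitial progenitors, so its place there is a description.

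Within other classes, 4 pairs of clusters were compared for *Inhba*. Sertoli-like nuclei with low *Mki67* and *Top2a* (584 nuclei, 138 CPM for both genes together) had 25.2 CPM of *Inhba*, and those with high *Mki67* and *Top2a* (231 nuclei, 965 CPM) had 60.4 CPM, a ratio of 0.42 (0.34–0.52). The germ-like cluster with lower *Mki67* and *Top2a* (630 nuclei, 229.6 CPM for both genes) had 53.7 CPM and the one with higher levels (343 nuclei, 687 CPM) 25.3 CPM, a ratio of 2.12 (1.75–2.58), so the direction was the reverse of that in Sertoli-like nuclei. Median depth was 8801.5 and 13989 UMIs in the low and high Sertoli-like clusters, and 16992.5 and 12780 UMIs in the lower and higher germ-like ones. *Inhba* was thus higher in the deeper cluster of both the Sertoli-like and the germ-like pair, and the part of depth, free RNA or doublets was not tested. The surface epithelium-like clusters (ratio 1.096, 0.79–1.55) and the endothelial-like clusters (0.81, 0.60–1.08) did not separate.

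*Inha*, the alpha chain that turns a beta chain into inhibin, was highest in Leydig-like nuclei. They had 69.0 CPM (63.6–74.7), 2.07-fold (1.81–2.37) the next level, which was that of Sertoli-like nuclei with 33.4 CPM. From Sertoli-like down to germ-like nuclei, with 14.9 CPM, no neighbouring pair in the order of classes differed beyond counting error. Classes further apart in this order did separate, with Sertoli-like nuclei at 2.25-fold (1.92–2.63) the germ-like level. *Inha* was the only one of the 9 genes at least 2-fold higher in Leydig-like nuclei than elsewhere (2.84-fold), where 7.41% of genes were, but *Inhbb* lay just under the threshold and passed it as a second member under 5 alternatives, the finer clustering among them (48.8 CPM against 24.4 in other nuclei).

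*Inhbb*, the beta B chain, was highest in Sertoli-like nuclei and next in Leydig-like nuclei. The levels were 88.1 CPM (82.4–94.1) and 47.5 CPM (43.1–52.3), a ratio of 1.85 (1.65–2.09). The unnamed *Pax8* class had 31.8 CPM and each other class 19.9 CPM or less, down to 9.68 CPM in cycling progenitor-like nuclei. Against all other nuclei *Inhbb* stood 4.89-fold higher in Sertoli-like nuclei, a value that ranged from 4.34 to 14.01-fold over the alternatives, and 1.95-fold higher in Leydig-like nuclei. The highest value came from subtracting, in each class, the Sertoli, Leydig and germ levels scaled by the median share of their markers read there. Taking a share of the Sertoli level from other classes by itself raises the ratio of a gene high in Sertoli-like nuclei, and likewise for Leydig-like nuclei. After that subtraction *Inhbb* stood at 84.9 CPM in Sertoli-like, 40.7 in Leydig-like and 7.79 in mesonephric mesenchyme-like nuclei, at 2.64 CPM in the *Pax8* class, and at 0 in germ-like, cycling progenitor-like, endothelial-like and immune-like nuclei, so the order of the classes below Leydig-like nuclei depended on it. By the same subtraction *Inha* fell from 14.9 to 3.18 CPM in germ-like and from 20.3 to 4.57 CPM in endothelial-like nuclei. It stood at 66.2 CPM in Leydig-like nuclei. Alpha chain RNA and the beta chains therefore had different highest classes: *Inha* in Leydig-like, *Inhbb* in Sertoli-like and *Inhba* in interstitial nuclei.

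**Figure D1:**
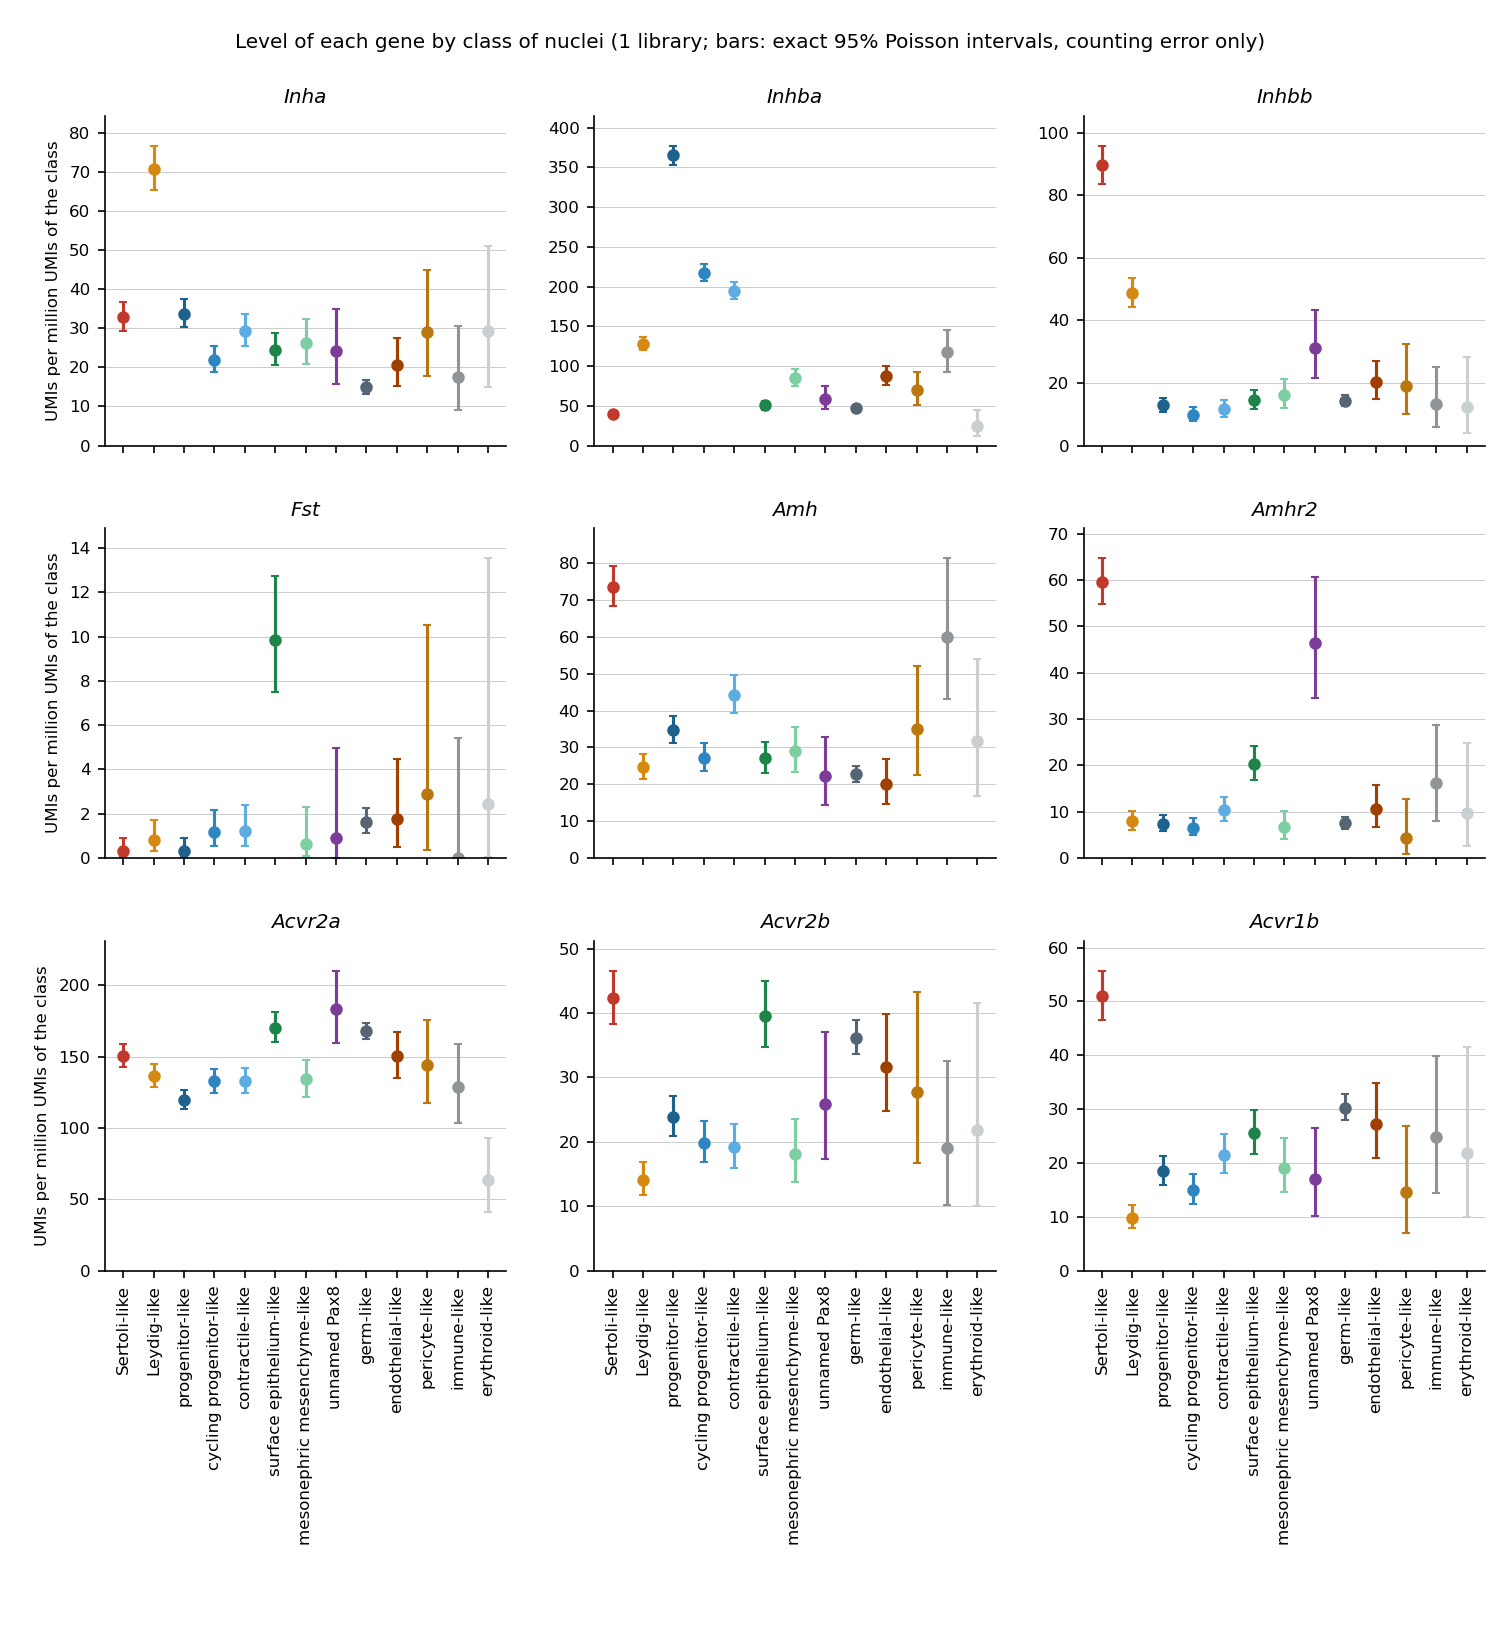
Level of each of the 9 genes in each class of the finer clustering, in UMIs per 1000000 UMIs on linear axes that differ between panels, with bars for exact 95% counting intervals. *Inhba* is highest in progenitor-like nuclei at 365 CPM, *Inhbb*, *Amh*, *Amhr2* and *Acvr1b* in Sertoli-like nuclei, and *Inha* in Leydig-like nuclei.

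*Fst*, the activin antagonist, was rare, with 131 UMIs in all kept nuclei. Of these, 58 lay in surface epithelium-like nuclei, where the level was 10.55 CPM (8.01–13.6), 10.3-fold (7.19–14.8) that elsewhere. *Fst* was the only member past 2-fold in this class, against 5.49% of genes. With 73 UMIs elsewhere it passed the 100-UMI minimum through this class alone, so nothing is read from that share. In the finer clustering the class held 579 nuclei, and 43 UMIs came from a cluster of 91 of them (45.6 CPM) and 15 UMIs from the other 488 (3.03 CPM). Germ-like nuclei held 33 *Fst* UMIs (1.61 CPM), the mixed interstitial class 11 UMIs (0.68 CPM) and Sertoli-like nuclei 3 UMIs (0.30 CPM). Pericyte-like nuclei came next to the surface epithelium with 2.91 CPM from 2 UMIs, and that gap was within counting error (ratio 3.62, 0.96–30.6). No *Fst* UMI was seen in immune-like nuclei, where the exact interval allows a level of up to 5.40 CPM, so a level like that of most other classes was not detectable at this depth.

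*Amh*, the hormone of fetal Sertoli cells, was highest in Sertoli-like nuclei but was read in every class. The Sertoli level was 71.4 CPM (66.2–76.8), 2.50-fold (2.29–2.73) that in all other nuclei, with 2.27 to 3.88-fold over the alternatives. Immune-like nuclei had 60.0 CPM, which did not differ from the Sertoli level beyond counting error (ratio 1.19, 0.87–1.67), the mixed interstitial class had 38.6 CPM, and the other classes had 21.6 to 35.0 CPM. An *Amh* UMI was found in 51.9% of Sertoli-like nuclei (median depth 9851.5 UMIs) and in 29.7% of germ-like nuclei (median 15521.5), a cell type that is not known to make AMH. With each nucleus thinned to 2000 UMIs the shares were 14.6% and 4.01%.

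The levels of the 6 Sertoli markers in other classes were set beside that of *Amh*. Their median level in the other classes was 6.3% to 28.4% of the Sertoli level, and *Amh* stood at 30.3% to 84.1%, above that median in each of them. It was above every single marker except in germ-like, endothelial-like and unnamed *Pax8* nuclei, where it lay within the range of the 6. The highest marker in germ-like nuclei stood at 65.9% of its Sertoli level, beside a median of 17.3%, and which markers these classes express themselves was not tested. With the marker shares subtracted as for *Inhbb*, *Amh* fell from 22.7 to 0.067 CPM in the *Pax8* class, from 21.6 to 1.92 CPM in endothelial-like and from 22.7 to 8.18 CPM in germ-like nuclei. It stood at 29.7 CPM in the mixed class, 45.5 CPM in immune-like nuclei and 18.2 to 25.5 CPM in the others outside the Sertoli-like class. In classes made from RNA alone, so that chromatin had no part in naming them, the *Amh* promoter peak (chr10:80804602-80805380, which also overlaps an exon of *Sf3a2*) told another order. Progenitor-like nuclei had 50.9% of the Sertoli level of *Amh* RNA and 7.12% of its promoter fragments, scaled by depth. Leydig-like nuclei had 35.5% of the RNA and 11.8% of the fragments, germ-like nuclei 33.1% and 19.4%, and surface epithelium-like nuclei 39.3% and 6.52%. The unnamed *Pax8* nuclei were the exception, with 36.6% of the RNA and 46.4% of the fragments, from 3 fragments. Immune-like nuclei had 89.4% of the RNA level and no promoter fragment, although so few fragments were read there that 3 of them would be 36.8 per 1000000 fragments at peaks (FPM), against 45.3 FPM in Sertoli-like nuclei. The part of free RNA or of unremoved doublets in the *Amh* reads of other classes was not tested.

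**Figure D2:**
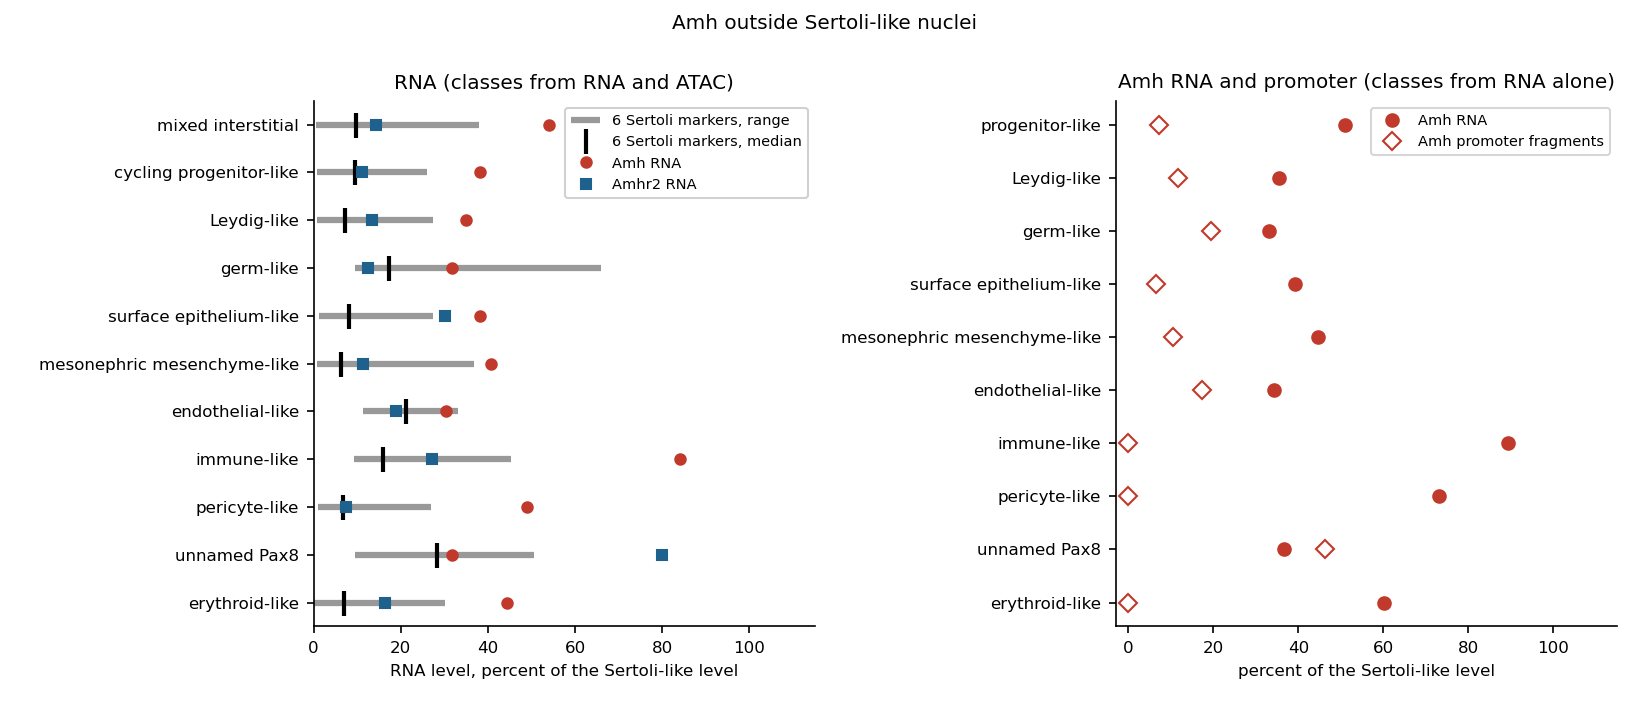
Levels outside Sertoli-like nuclei as a percent of the Sertoli level. The left panel shows *Amh* and *Amhr2* RNA over the range (grey) and median (tick) of 6 Sertoli markers, and the right panel *Amh* RNA (filled) and promoter fragments (open), which stand at 50.9% and 7.12% in progenitor-like nuclei.

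*Amhr2*, the AMH type II receptor, shared its highest class with its ligand. Sertoli-like nuclei had 59.2 CPM (54.5–64.2), 6.34-fold (5.66–7.11) the level elsewhere, with 4.53 to 21.8-fold over the alternatives, the highest with the marker shares subtracted. The unnamed *Pax8* class had 47.3 CPM (35.3–62.0, 52 UMIs), within counting error of the Sertoli level (ratio 1.25, 0.94–1.69), and *Amhr2* was its only member past 2-fold (3.09-fold), against 6.95% of genes. Surface epithelium-like nuclei followed with 17.8 CPM, and Leydig-like nuclei, whose adult counterparts carry AMHR2, had 7.996 CPM. In Sertoli-like nuclei with low *Mki67* and *Top2a*, *Amh* was 84.1 CPM and *Amhr2* 69.1 CPM, against 58.6 and 46.0 CPM in those with high *Mki67* and *Top2a*, ratios of 1.44 (1.22–1.69) and 1.502 (1.25–1.80). *Inha* (1.47, 1.16–1.89) and *Inhbb* (1.20, 1.04–1.38) were higher in the same cluster, and *Inhba*, as above, in the other, which was also the deeper.

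The activin receptors differed in how evenly they were read. *Acvr2a*, a type II receptor, was broad, with 124 to 185 CPM in 11 classes and 63.2 CPM in erythroid-like nuclei, and no class reached 2-fold. *Acvr2b*, the other type II receptor, had 42.1 CPM in Sertoli-like, 39.3 in surface epithelium-like and 36.1 in germ-like nuclei. Neighbours in this order did not separate, and Sertoli-like nuclei stood 1.17-fold (1.03–1.32) above germ-like nuclei. *Acvr2b* was lowest in Leydig-like nuclei with 14.8 CPM, which was not separated from the mesonephric mesenchyme-like level (ratio 1.22, 0.88–1.68). *Acvr1b*, the type I receptor, had 49.7 CPM (45.4–54.3) in Sertoli-like nuclei, 1.65-fold (1.46–1.85) the level in germ-like nuclei, and was lowest in Leydig-like nuclei with 10.2 CPM, within counting error of the pericyte-like level (ratio 1.43, 0.66–2.76). Sertoli-like nuclei thus had 4.89-fold (3.89–6.20) the Leydig level of *Acvr1b* and 2.84-fold (2.33–3.48) that of *Acvr2b*.

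In all, 4 of the 9 genes were at least 2-fold higher in Sertoli-like nuclei (*Amhr2*, *Inhbb*, *Amh* and *Acvr1b*), where 7.78% of genes were. *Amh* was among the markers by which the study named its Sertoli cluster, so its place there was known beforehand. At 4-fold, *Amhr2* and *Inhbb* passed, against 2.85% of genes, and no member passed in Leydig-like nuclei, against 2.9%. With the marker shares subtracted *Acvr2b* also passed in Sertoli-like nuclei, at 2.01-fold in place of 1.58. That subtraction raises such ratios by itself, as above, and the share of all genes past 2-fold after it was not computed. *Fst* is left out of the counts of low members, since 58 of its 131 UMIs, and with them the level it is compared with, came from surface epithelium-like nuclei. Of the other 8 genes, *Inhba* (0.28-fold) was at or below 0.5-fold in Sertoli-like nuclei, where 20.5% of genes were. The median ratio over all 9 genes, with *Fst* included, in Sertoli-like nuclei was 1.58, beside 0.93 over all genes. In Leydig-like nuclei 3 of the 8 (*Acvr1b*, *Amhr2* and *Acvr2b*) were at or below 0.5-fold, where 23.3% of genes were. Germ-like nuclei had 0 of 9 at 2-fold or more, against 16.4% of genes, and 4 of the 8 at or below 0.5-fold (*Inhba*, *Amhr2*, *Inha* and *Inhbb*), against 20.4%. For each of these low genes, too, the level compared with includes the class where it is highest. The low counts thus partly restate where the genes are high. *Inhbb* in germ-like nuclei (14.3 CPM) and *Amhr2* in Leydig-like and germ-like nuclei (7.996 and 7.45 CPM) were within counting error of neighbouring classes in the order.

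Promoter openness was compared in the classes made from RNA alone, as unique ATAC fragments at peaks within 1 kb of a start. The *Amh* promoter had 73 fragments in Sertoli-like nuclei and 63 in all others, 45.3 against 4.95 FPM, a ratio of 9.14 (6.43–13.01) that was 3.31 with peaks within 5 kb and at most 11.1 under the other alternatives. The 2 *Amhr2* peaks (chr15:102444845-102445693 and chr15:102446292-102447103) were together 3.07-fold (2.21–4.20) more open in Sertoli-like nuclei. These 2 of 9 promoters passed 2-fold, where 3.55% of 19254 promoters did. The unnamed *Pax8* nuclei had the *Amhr2* promoter 4.14-fold (1.76–8.32) more open from 8 fragments, against 8.55% of promoters past 2-fold. The *Amh* promoter also passed 2-fold there, but from 3 fragments, and was not separated from 1 by counting error. The RNA and promoter of *Amhr2* were thus both high in the same pair of classes.

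The other promoters differed less. The *Inhbb* promoter was 1.44-fold (1.09–1.89) more open in Sertoli-like and 1.46-fold (1.05–1.99) in Leydig-like nuclei, with the peak at the start (chr1:119421816-119422652) at 2.08-fold (1.45–2.94) and a peak inside the gene (chr1:119420752-119421552) at 0.90-fold in Sertoli-like nuclei. The *Inha* promoter (chr1:75506086-75506940), which lies also within 1 kb of the start of *Obsl1*, was 1.52-fold (1.15–1.98) more open in Leydig-like nuclei, and no member passed 2-fold there, against 2.27% of promoters. The *Inhba* promoter (chr13:16011908-16012735) had a ratio of 1.21 (0.96–1.51) in progenitor-like nuclei, not separated from 1 by counting error, where 1.43% of promoters passed 2-fold, and was 2.36-fold (1.24–4.10) more open in endothelial-like nuclei, where 5.02% did. The progenitor-like class made from RNA alone held 2941 nuclei. In the joint clustering, where the 749 cycling nuclei alone carried the progenitor name and the mixed class counted among the others, the log2 ratio was -0.18, and with the mixed class added to the cycling nuclei it was 0.07. The *Fst* promoter (chr13:114458344-114459085, shared with *Gm47040*) was 2.19-fold (1.53–3.10) more open in germ-like nuclei, where 10.6% of promoters passed 2-fold, and 2.61-fold (1.03–5.52) in endothelial-like nuclei, from 7 fragments. In surface epithelium-like nuclei, which had the highest *Fst* RNA, it had 9 fragments, and no member passed 2-fold, against 3.48%.

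Beyond the promoters, peaks within 100 kb of the gene body with at least 100 fragments in kept nuclei were compared. Their number ran from 1 for *Acvr2a* and 2 each for *Inhba* and *Fst* to 28 for *Acvr1b*. For each gene, the peak with the largest ratio in the class of highest RNA, among named classes of at least 50 nuclei, is given. Because that ratio chose the peak, its value is a description. The peaks of *Inhbb*, *Acvr1b*, *Inhba* and *Amh* passed the fragment minimum only through that class, with 50, 56, 31 and 62 fragments elsewhere. The *Inhbb* peak (chr1:119412936-119413833), past the 3′ end of the gene, had 44.6 FPM in Sertoli-like nuclei (72 fragments, against 50 in all other nuclei). Leydig-like nuclei, which held 26 of those 50 fragments, had 23.1 FPM (15.1–33.9), and germ-like, progenitor-like and surface epithelium-like nuclei 2.0003, 1.70 and 1.47 FPM.

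The *Acvr1b* intron peak (chr15:101209502-101210310) had 30.4 FPM in Sertoli-like nuclei, 23.6 in endothelial-like (6 fragments), 13.3 in Leydig-like, 3.60 in germ-like and 3.39 in progenitor-like nuclei. Leydig-like nuclei were lowest in *Acvr1b* RNA, so the order at this peak differs from the order of the RNA. The *Inhba* peak (chr13:16064908-16065821) had 13.9 FPM in progenitor-like nuclei (82 fragments), 15.7 in endothelial-like (4 fragments), 2.48 in Sertoli-like and 1.78 in Leydig-like nuclei. For *Inha*, *Acvr2b*, *Amhr2* and *Fst* the largest ratio was 1.90 or less, for *Acvr2a* the single peak tested had 0.82 in surface epithelium-like nuclei, although its RNA was highest in the unnamed *Pax8* nuclei (185 CPM against 168), and for *Amh* it was 8.27 at an exon of *Sf3a2* (chr10:80802473-80803409). The *Amhr2*, *Fst* and *Acvr2a* peaks lay within 1 kb of starts of other genes, namely *Prr13*, *Ndufs4*, and *Mbd5* and *Orc4*.

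**Figure D3:**
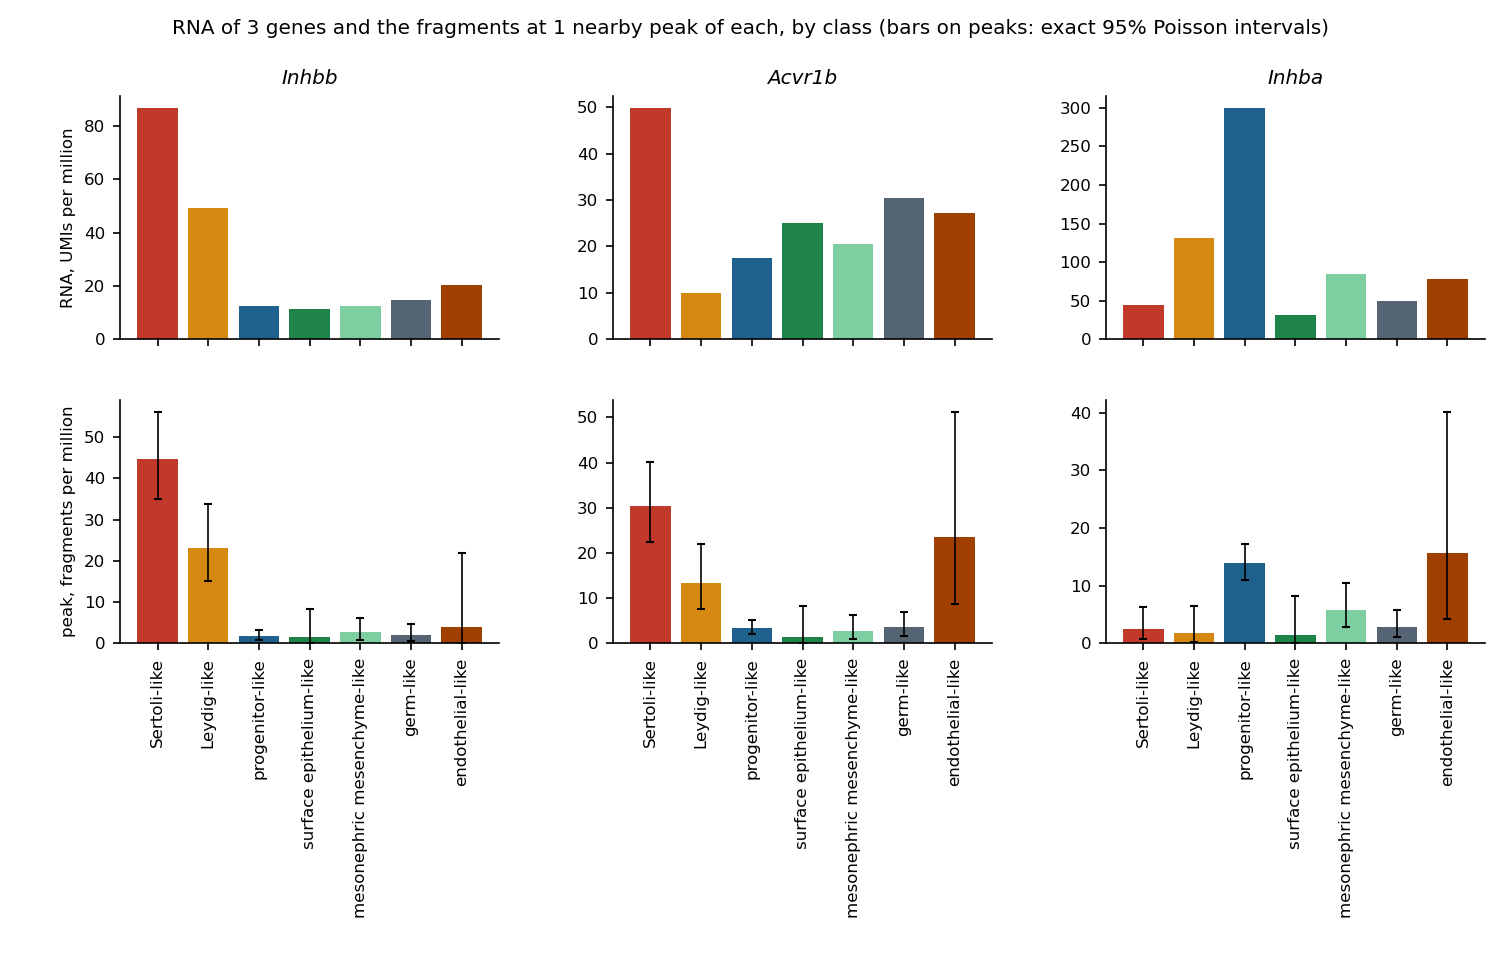
RNA (top, CPM) and unique ATAC fragments at 1 distal peak (bottom, FPM, with exact 95% counting intervals) of *Inhbb*, *Acvr1b* and *Inhba* by class made from RNA alone. The *Inhbb* peak stands at 44.6 FPM in Sertoli-like and 23.1 in Leydig-like nuclei and at 2.0003 or less in progenitor-like, germ-like and surface epithelium-like nuclei.

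The wider pathway was described from 33 other ligands, binding proteins, receptors, SMADs, proprotein convertases and gonadal regulators, of which 27 had at least 100 UMIs. The list was chosen with earlier results of these data known. Its gonadal regulators include *Fshr*, *Wt1*, *Gata4* and *Nr5a1*, the last of which the study used to name its Leydig cluster. Counts from this list are therefore descriptions. In Sertoli-like nuclei 5 were at least 2-fold higher, where 7.78% of all genes were, and 5 at or below 0.5-fold, where 20.5% were, with a median ratio of 1.03 beside 0.93 over all genes. *Fshr*, the FSH receptor, stood at 253 against 8.90 CPM elsewhere, the inhibitory SMAD gene *Smad7* at 384 against 83.8, and the gonadal transcription factors *Wt1* and *Gata4* at 756 against 209 and 1373 against 469. In Leydig-like nuclei 5 were higher and 7 lower (7.41% and 23.3% of all genes), with a median of 0.82 beside 0.87. *Nr5a1*, a regulator of steroidogenic genes, stood at 382 against 39.7 CPM, the convertase gene *Pcsk6* at 405 against 50.8, *Lefty2*, a Nodal antagonist, at 16.4 against 5.52, and *Tgfbr3*, the co-receptor betaglycan through which inhibin competes with activin, at 680 against 309. Leydig-like nuclei thus had the highest *Inha* together with *Tgfbr3* 2.20-fold (2.13–2.26) above other nuclei, while Sertoli-like nuclei had *Tgfbr3* at 0.23-fold.

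In the unnamed *Pax8* class, which carried *Amhr2*, 8 of the 27 were higher and 3 lower (6.95% and 19.3% of all genes), with a median of 1.16 beside 0.88. *Bmpr1b*, a BMP type I receptor gene, stood at 2569 against 79.0 CPM, *Smad9* at 79.2 against 4.18, the inhibitory *Smad6* at 484 against 64.2 and the activin-binding *Fstl3* at 10.0 against 1.79 from 11 UMIs. Surface epithelium-like nuclei had 7 higher and 4 lower (5.49% and 17.6% of all genes, median 1.064 beside 0.86), led by *Wt1* (4.56-fold), *Smad9* (3.89-fold), *Acvr1c* (2.74-fold) and *Bmpr1b* (2.69-fold). Germ-like nuclei had 15 of the 27 lower and 1, *Lefty1*, higher (4.74-fold), where 20.4% and 16.4% of all genes were, with a median of 0.49 beside 1.03 over all genes. None was 2-fold higher in the mixed interstitial or the cycling progenitor-like class, where 5.07% and 3.68% of all genes were. In each, 5 were lower, beside 19.9% and 20.3% of all genes.

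**Figure D4:**
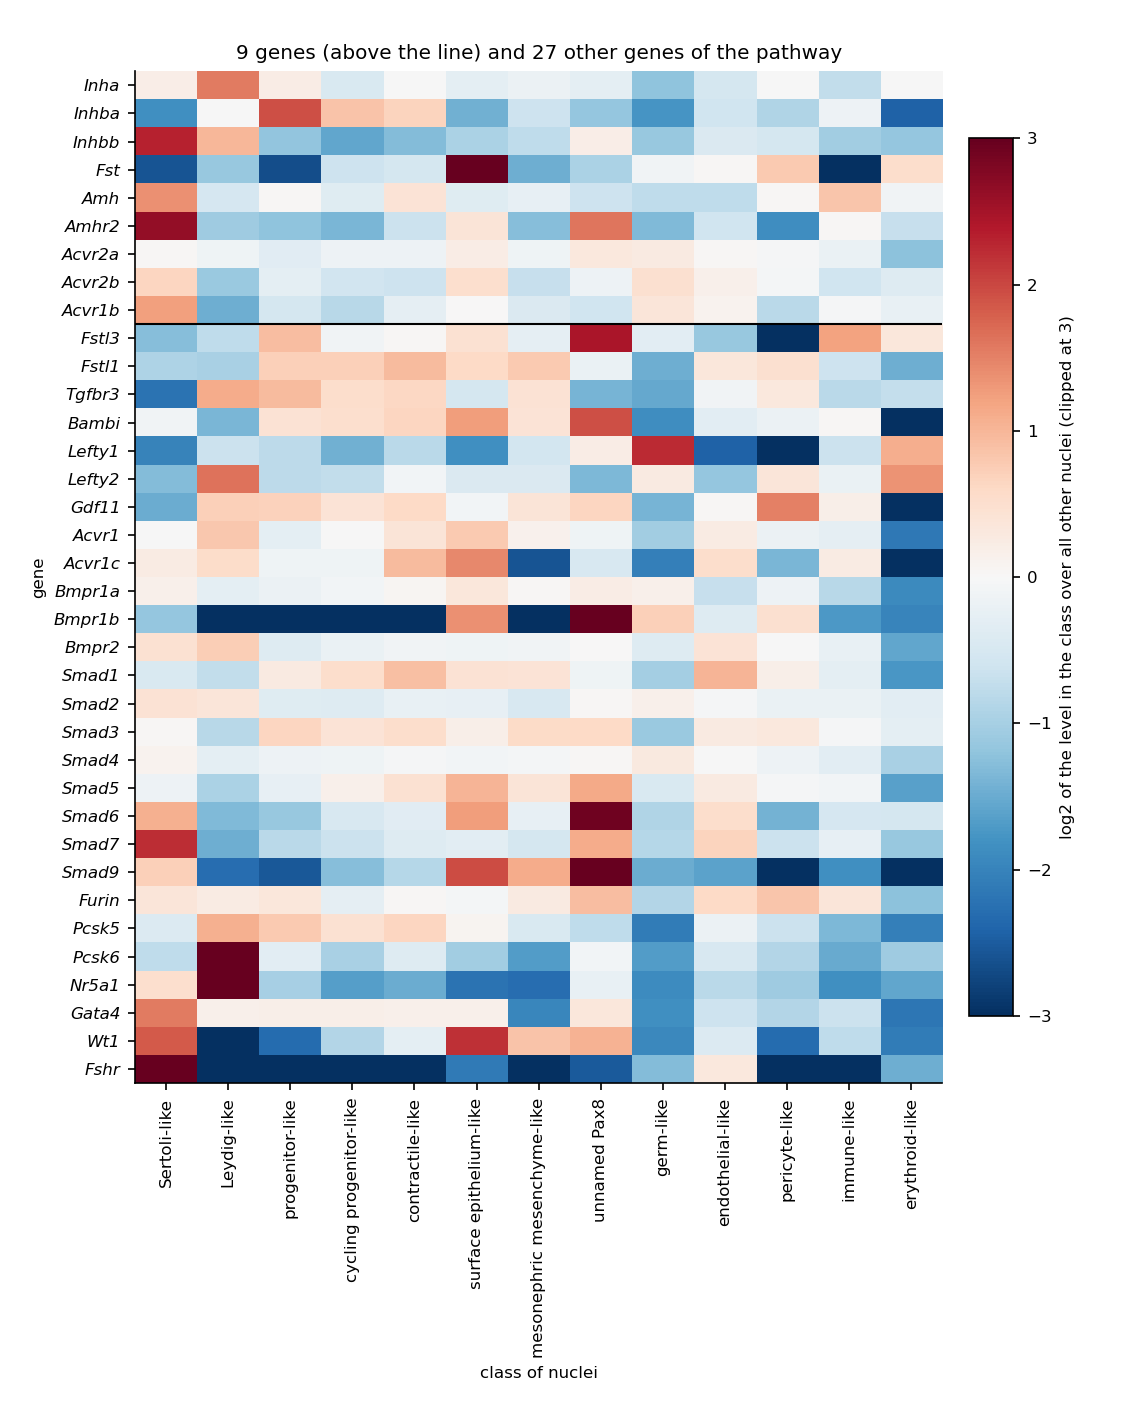
Ratio of the level in a class of the finer clustering to that in all other nuclei (log2, red higher and blue lower, colours limited at 3) for the 9 genes, above the line, and 27 other pathway genes. Of the latter, *Fshr* leads in Sertoli-like, *Nr5a1* in Leydig-like and *Bmpr1b* in the unnamed *Pax8* nuclei.

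Genes that were read in the same nucleus were counted for 6 pairs in 5 classes. With nuclei thinned to 2000 UMIs, 0 of 30 shares lay above or below the product of the single shares beyond the exact interval, and as counted 6 lay above and 0 below, 4 of the 6 in germ-like nuclei. Thinning left few nuclei to count, with a product of 0.112% of 971 germ-like nuclei for *Inha* and *Inhba*, so a departure of the size seen as counted was not detectable in many of the thinned shares. *Inha* and *Inhba*, the chains of inhibin A, were both read in 3.34% of thinned progenitor-like nuclei, where the product was 3.18%. *Inha* and *Inhbb*, the chains of inhibin B, were both read in 1.72% of Sertoli-like nuclei (product 1.38%), and *Amh* with *Amhr2* in 1.85% (product 1.89%).

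The genes whose levels most resembled each member over 9 named classes were listed among 13473 genes, as a description of points that share 1 library. They were *Usp11*, *Fasn* and *5031425E22Rik* for *Inha* (Pearson's r 0.964 to 0.955), *Stc1*, *Vps13d* and *Osr2* for *Inhba* (0.949 to 0.937), and *Pabpn1*, *Trim62* and *Tafa5* for *Inhbb* (the first at 0.964). For *Amhr2* they were *Kars*, *Cryl1* and *Ppp2cb* (0.985 to 0.964), for *Amh* *Spp1*, *Nfxl1* and *Tab1* (the first at 0.955), and for *Acvr1b* *Spire2*, *Ssh1* and *9530059O14Rik* (the first at 0.969). *Grin2b*, *L3mbtl3* and *Luzp2* were nearest to *Fst*, *Mpp5*, *Mipep* and *Osbpl3* to *Acvr2a*, and *Lats2*, *Snhg8* and *Tulp4* to *Acvr2b*. *Fst* itself had 131 UMIs, fewer than the 200 asked of the listed genes. Its level was 10.55 CPM in surface epithelium-like nuclei and 2.91 CPM or less in every other class, so its list rests mainly on 1 class. The mixed interstitial, unnamed *Pax8* and erythroid-like classes were not among the 9, so the genes for *Inhba* were found without its highest class. How high the best r would be by chance with 9 points and 13473 genes was not computed.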

How the data were processed

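Nuclei of whole E14.5 testes were measured for RNA and open chromatin, 1 library each. The authors deposited counts of UMIs per gene and cut sites per peak and a list of unique fragments, made with Cell Ranger ARC 2.0.1 on mm10 per the submitters' processing notes. The matrix held 9833 barcodes, 32285 genes and 109215 peaks. Nuclei with more than 500 genes, 250 to 25000 fragments at peaks, under 10% mitochondrial, 10% ribosomal and 0.5% haemoglobin UMIs and over 20% of fragments at peaks were kept (7668), and the 470 with the highest doublet score (6.13%, scanpy 1.11.5 Scrublet) were removed. The automatic score threshold would have removed 1379. The study's correction for free RNA was not applied.

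RNA and ATAC were clustered together with Seurat 5.3.0 (R 4.3.3) at resolutions 0.3 and 0.6, leaving the members out of the variable genes. Clusters were named by marker lists. Promoters and peaks were compared in classes made from RNA alone. Levels were summed per class and divided by its UMIs. Intervals are exact Poisson (levels), conditional binomial (ratios) and Clopper-Pearson (shares). A gene counted as higher where it had at least 100 UMIs and was at least 2-fold above all other kept nuclei. Named were the 9 members, the 3 genes nearest to each by Pearson's r of log2(CPM + 1) among genes with at least 200 UMIs, up to 4 pathway genes per class, and the peaks defined in the text. *Sox9* served for naming and was dropped from the pathway list. The motif search of the peak centres was added after seeing the data. The members, lists and rules were chosen with earlier results of these data known. Ratio and interval code was tested on simulated data. With 1 library per assay no test was possible. Alternatives changed doublet removal, nucleus minimums, clustering, the fold, the promoter window and the reference level.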

Additional observations from a re-analysis of the deposited data

How the results depend on the processing

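No paired analysis was possible because each assay had 1 library. Dropping the UMI minimum and raising the minimum of promoter fragments could change no value, since every member passed each minimum. Their entries are counted below among those that stayed. Most of the counts and values moved little: 79 recomputed counts stayed within 1.5 times and 19 did not, and of the single values 92 moved by less than counting error, 33 by more and 1 changed sign. That one was the *Inhba* promoter in progenitor-like nuclei, -0.18 on the log2 scale in the joint classes, where both the clustering and the nuclei named progenitor-like changed (749 cycling nuclei in place of 2941), and 0.07 there with the mixed class added, an alternative chosen after seeing the data. Leydig-like nuclei had 2 members past 2-fold under the automatic doublet threshold, an unweighted mean of the other classes, subtraction of carry-over, clustering on RNA alone and resolution 0.6, the added gene being *Inhbb*, and 0 at a 4-fold minimum. Sertoli-like nuclei had 2 at 4-fold, and 5 with carry-over subtracted, which added *Acvr2b* and by itself raises the ratios of genes high there. Progenitor-like nuclei, taken at resolution 0.3 as the cycling class alone, had 0 members, and 1, *Inhba*, under the automatic threshold, the unweighted mean, clustering on ATAC or RNA alone, no doublet removal, stricter minimums, resolution 0.6, and with the mixed class added, again chosen after seeing the data. Their pathway count rose from 0 to 1 under the automatic threshold, also an alternative chosen after seeing the data. Leydig-like promoters past 2-fold numbered 1 under the automatic threshold, and germ-like promoters 0 with a 5 kb window. At resolution 0.6 the share of all genes past 2-fold was 7.49% in Leydig-like and 4.08% in progenitor-like nuclei. At 4-fold it was 2.9% in Leydig-like and 2.85% in Sertoli-like nuclei. For the other alternatives no share of all genes or promoters was computed, so those counts stand without one. Shares of pairs above the product fell from 6 to 0 when thinned. In Sertoli-like nuclei *Amh* ranged from 2.27 to 3.88-fold, *Amhr2* from 4.53 to 21.8-fold and *Inhbb* from 4.34 to 14.01-fold, the highest of the latter pair with carry-over subtracted, and the *Amh* promoter from 3.31 (5 kb window) to 11.1-fold. The cause of these shifts was not tested. Classes of under 100 nuclei and genes such as *Fst*, with 131 UMIs, are limited by depth.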
